A study of Homo sapiens with 66 samples.

Results

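The 10 genes described here write, remove or regulate marks on DNA and chromatin: the DNA methyltransferases DNMT1, DNMT3A and DNMT3B, the methylcytosine dioxygenases TET1, TET2 and TET3, the isocitrate dehydrogenases IDH1 and IDH2, the histone methyltransferase EZH2 and the chromatin regulator ASXL1. Of these, DNMT3A, TET2, IDH1, IDH2, EZH2 and ASXL1 are recurrently mutated in acute myeloid leukemia (AML). They were found by symbol, as 10 of 57992 gene identifiers with read counts, and all 10 passed the filter on low counts in every cell line. RNA was sequenced in 66 libraries from 11 AML cell lines (labelled THP1, OCIAML3, OCIAML2, NOMO1, NB4, MV411, MONOMAC6, MOLM13, KASUMI1, HL60 and F36P), named below with the usual hyphens, as in THP-1. Each cell line was given medium alone (untreated) or etoposide for 24 hours, with 3 libraries per group that the submitters call biological replicates and cells of 3 wells pooled for each RNA. Etoposide is a chemotherapeutic that traps topoisomerase II on cut DNA. It was used at the IC50 of each cell line, so that the concentration differed among cell lines, and for F-36P this IC50 lay above the highest concentration of the viability assay it was taken from. A cell line is the culture of 1 patient's leukemia, so the groups differ in cell line, and the error within a group is the spread between libraries of that line. Serum content and supplements differed among cell lines too, and F-36P was grown with granulocyte-macrophage colony stimulating factor. These culture conditions cannot be told apart from the cell line.

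In mammalian cells, DNMT1 copies methylation of cytosine in CpG onto new DNA after replication, while DNMT3A and DNMT3B set new methylation. The TET enzymes oxidise methylcytosine, which leads to its loss, and need 2-oxoglutarate to do so. IDH1 in the cytosol and IDH2 in mitochondria make 2-oxoglutarate, and their mutant forms in AML make 2-hydroxyglutarate, which blocks TET enzymes. EZH2 is the catalytic subunit of the Polycomb repressive complex PRC2, which methylates histone H3 at lysine 27, and ASXL1 is a partner of the deubiquitinase BAP1 in the complex PR-DUB. Counts of reads per gene give the level of the mRNA and say nothing of mutations, of enzyme activity or of methylation itself.

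The libraries held between 17997404 and 24101670 reads on genes, with a median of 20241014. The AML label was checked with PTPRC, SPI1 and CD33, markers of leukocytes and myeloid cells, which were detected in every cell line. Myeloperoxidase (MPO) ranged from 0.501 to 1.30 CPM (counts scaled to a fixed total of reads per library) in F-36P to 25300 to 28700 CPM in KASUMI-1, and the erythroid factor KLF1 was at 201 to 277 CPM in F-36P and at most 2.69 CPM in the other 10 cell lines. CDKN1A, a p53 target used to check the treatment, rose between 3.63-fold (MV-4-11) and 44-fold (OCI-AML3) in the 10 cell lines other than OCI-AML2. Among the same 10 cell lines MDM2, the other gene of this check, rose in MONO-MAC-6, NOMO-1, MV-4-11, MOLM-13 and OCI-AML3, from 1.53-fold to 6.03-fold. It fell in NB-4 (log2 fold change -0.33, edgeR, adjusted p = 0.0075). In F-36P (-0.22), HL-60 (0.14), KASUMI-1 (-0.02) and THP-1 (0.03) it did not pass (edgeR, adjusted p between 0.0973 and 0.895). In OCI-AML2, whose etoposide libraries the study discarded for read quality, CDKN1A rose 1.66-fold and MDM2 1.38-fold (edgeR, adjusted p = 0.000289 and 0.00593). Of the 10 genes, 0 passed the test there (edgeR, adjusted p = 0.998 for each). Only 3 of 13604 genes (0.0221%) passed an FDR of 0.05, CDKN1A and MDM2 among them. An unadjusted p under 0.05 was found for 456 genes there. OCI-AML2 is therefore given apart, and totals are over 10 cell lines.

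After etoposide, the 10 genes did not move as a group. In bulk RNA, fewer cells of a type and less RNA per cell cannot be told apart. Of 100 comparisons (10 genes in 10 cell lines), edgeR's quasi-likelihood test found 29 higher and 42 lower at an adjusted p below 0.05, and 29 did not pass. Among all genes tested in these cell lines, 27.7% of comparisons were higher and 24.4% lower, or 52.1% in either direction. Etoposide changes above 2-fold were few: 2 higher (IDH1 and IDH2 in F-36P, against 11.1% of all comparisons) and 3 lower (TET1 in MONO-MAC-6, NB-4 and THP-1, against 3.96%). The values of the 3 untreated and the 3 etoposide libraries did not overlap in 78 of the 100 comparisons, against 59.8% of all. With counts scaled by library size alone instead of TMM, the split was 36 higher and 32 lower, since that scaling moved the median log2 fold change of all genes to 0.34 in F-36P, 0.21 in NB-4, 0.20 in KASUMI-1, 0.14 in MV-4-11 and 0.13 in MONO-MAC-6. When each of the 6 libraries of a cell line was left out in turn, 50 of the 71 calls were kept every time, 18 of them higher and 32 lower, and the remaining 21 are named with their gene. In all, 7 of the 10 genes rose in at least 1 cell line and fell in at least 1 other, as did 37.8% of the 10588 genes tested in all 10 cell lines. All of the 10 genes, and 74.5% of all genes, differed in their etoposide change among the 10 cell lines by edgeR's F test.

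**Figure D1:**
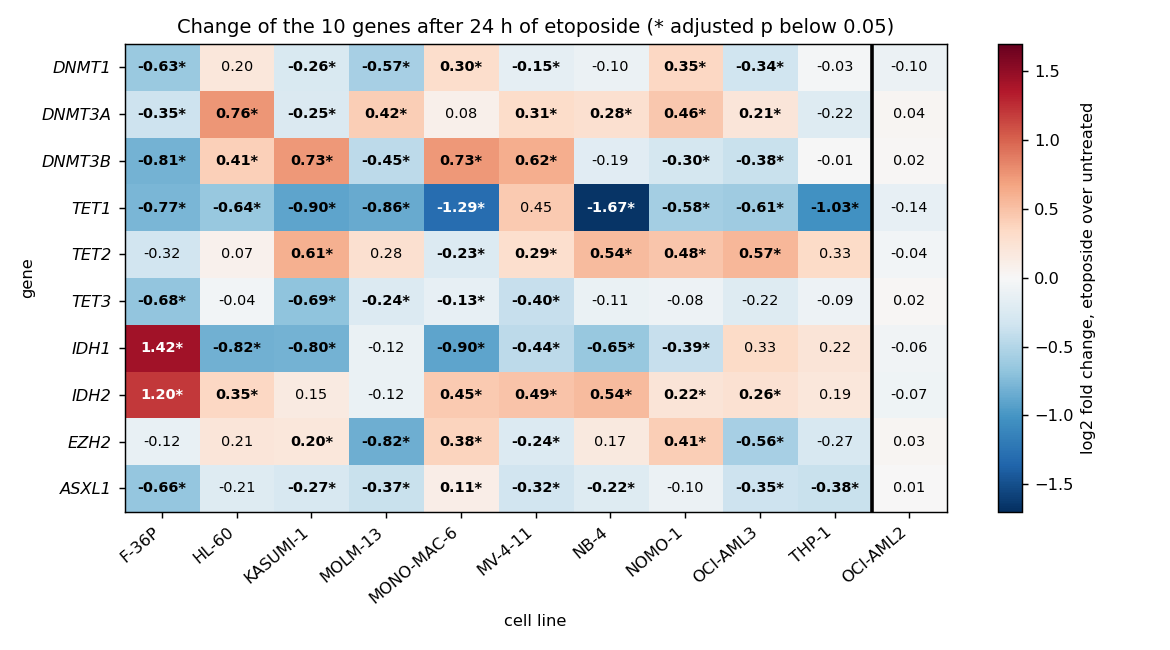
Log2 fold change of each of the 10 genes (rows) after 24 h of etoposide over untreated cells in each cell line (columns), with colour and number giving the same value and an asterisk where edgeR's adjusted p is below 0.05. TET1 is blue in 9 of 10 cell lines, IDH2 is red or pale, DNMT3B and EZH2 hold both colours, and OCI-AML2, right of the line, is pale throughout.

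The 3 DNA methyltransferases differed in basal level, given throughout as CPM normalised over the 33 untreated libraries. DNMT1 (chr19:10133342-10231286, minus strand, GRCh38) had the highest level per kilobase of its main transcript of the 3 genes in all 11 cell lines, with 63.5% (F-36P) to 94.6% (MV-4-11) of their sum. Measured over all exons instead, DNMT1 led in all 11 too, with 48.0% (F-36P) to 90.3% (MV-4-11). It was highest in NB-4 at 1219, 1200 and 1084 CPM and lowest in THP-1 at 377, 323.8 and 374.8 CPM, a 3.26-fold range. NB-4, MV-4-11 (759 CPM ± 18.7, SD, n = 3) and OCI-AML3 (586.9 CPM ± 30.3, SD, n = 3) each differed from the next lower cell line, and from MOLM-13 down no neighbours in the order of levels did.

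DNMT3A (chr2:25227855-25342590, minus strand) was highest in KASUMI-1 at 167.7, 178.6 and 178 CPM and lowest in HL-60 at 25.66, 26.45 and 22.82 CPM, a 7-fold range. KASUMI-1 and F-36P (136.2 CPM ± 15.4, SD, n = 3) stood above the other 9 cell lines, of which MONO-MAC-6 was the highest at 69.23 CPM ± 1.90 (SD, n = 3). DNMT3B (chr20:32762385-32809359, plus strand) was high in 3 cell lines, at 163.7 CPM ± 16.3 in NB-4, 116 CPM ± 14.4 in F-36P and 95.72 CPM ± 7.51 in NOMO-1 (SD, n = 3 each). The next, OCI-AML3, was 3.02-fold below NOMO-1 (edgeR, adjusted p = 4.25e-16), and THP-1 was the lowest at 10.53 CPM ± 0.145 (SD, n = 3). The cell lines rich in DNMT3A and DNMT3B thus overlapped in F-36P, while KASUMI-1 had 174.8 CPM of DNMT3A and 25.48 CPM of DNMT3B, and NB-4 had 56.47 and 163.7 CPM. Basal levels of all 10 genes differed among the 11 cell lines (edgeR F test), as did those of 99.4% of genes. Of the 55 pairs of cell lines, between 41 (TET2 and TET3) and 51 (DNMT3A) differed in a gene, where 66.8% of pairs did over all genes. Highest over lowest cell line, DNMT3A and DNMT3B (15.5-fold) lay above the median of 4.20-fold over 13669 genes with at least 1 CPM, and DNMT1 lay below it.

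**Figure D2:**
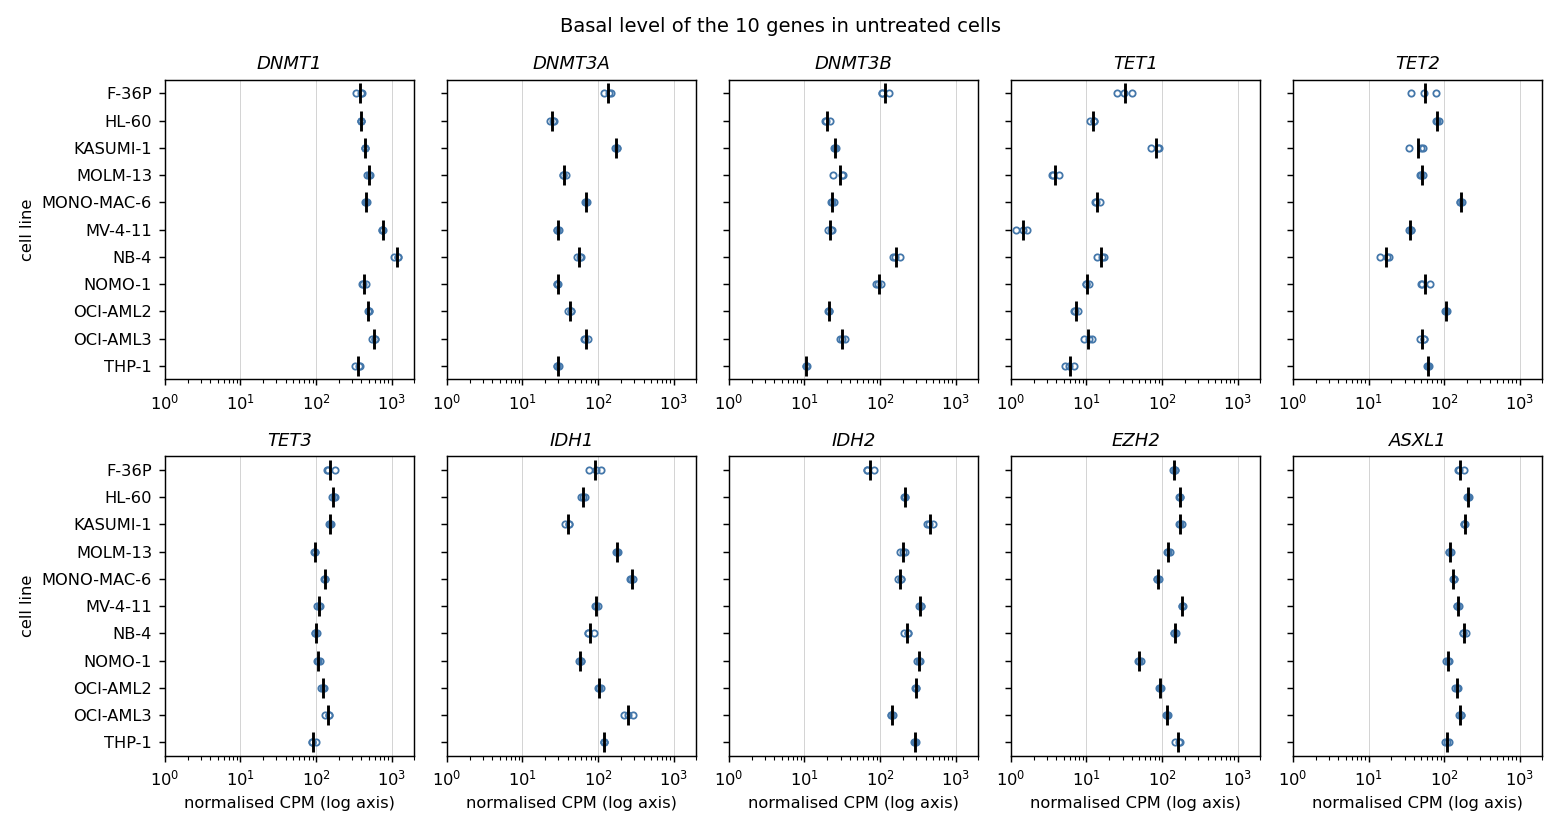
Basal level of each gene in untreated cells, in normalised CPM on a log axis, for the 11 cell lines. Circles are the 3 libraries and the bar is their mean; TET1 spans 58.0-fold from MV-4-11 to KASUMI-1, whereas TET3 and ASXL1 stay within 1.84-fold and 1.93-fold.

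After etoposide, DNMT1 fell in 5 cell lines and rose in 2. In F-36P, the largest fall, its levels were 406.7, 365.8 and 433.8 CPM before and 235, 245.7 and 298 CPM after treatment (CPM here and in all etoposide comparisons are normalised within the cell line). The groups did not overlap, and the log2 fold change was -0.63 (SE 0.12, edgeR, adjusted p = 0.00136). In the same cell line the sum of the erythroid markers KLF1, GATA1 and EPOR was between 618 and 775 CPM in untreated and between 341 and 417 CPM in treated libraries, and its part in the results of F-36P for all 10 genes was not tested. MOLM-13 (-0.57), OCI-AML3 (-0.34), KASUMI-1 (-0.26) and MV-4-11 (-0.15) fell as well. NOMO-1 went the other way, from 455.6, 509.9 and 471.3 to 640.3, 619.5 and 567.5 CPM, a log2 fold change of 0.35 (SE 0.08, edgeR, adjusted p = 0.00356), and MONO-MAC-6 rose by 0.30 on the log2 scale. Of these 7 calls, that in MV-4-11 was lost without untreated replicate 3 (edgeR, adjusted p = 0.0523), and those in KASUMI-1 and MV-4-11 were lost with library size alone (edgeR, adjusted p = 0.343 and 0.725). HL-60 (0.20) did not pass (edgeR, adjusted p = 0.0822) and passed without etoposide replicate 1 (edgeR, adjusted p = 0.0473). The mean log2 fold change over 10 cell lines was -0.10 with an SD of 0.32 (limma, adjusted p = 0.493).

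DNMT3A rose in 6 cell lines and fell in 2. Its largest rise was in HL-60, the line with the lowest basal level, from 27.55, 28.29 and 24.5 to 41.9, 49.51 and 44.32 CPM. All etoposide libraries were above all untreated ones, with a log2 fold change of 0.76 (SE 0.11, edgeR, adjusted p = 0.000219). It also rose in NOMO-1 (0.46), MOLM-13 (0.42) and MV-4-11 (0.31), calls that were kept when each library was left out in turn. The rises in NB-4 (0.28) and OCI-AML3 (0.21) and the falls in F-36P (-0.35) and KASUMI-1 (-0.25) were less secure. NB-4 lost its call without untreated replicate 1 or etoposide replicate 2 or 3, F-36P without untreated replicate 2 or etoposide replicate 1 or 3, KASUMI-1 without untreated replicate 2 or etoposide replicate 3, and OCI-AML3 without any of its 6 libraries, with adjusted p up to 0.0917, 0.079, 0.0576 and 0.189 (edgeR). In F-36P and KASUMI-1, where the basal level was highest, the calls were also lost with library size alone (edgeR, adjusted p = 0.502 and 0.393). The change in HL-60 was 0.65 above the mean of the other 9 cell lines on the log2 scale (edgeR, adjusted p = 3.62e-08, a test that 17.1% of genes passed for HL-60). THP-1 lay at -0.42 (edgeR, adjusted p = 8.72e-05, 25.3% of genes), although its own change of -0.22 did not pass (edgeR, adjusted p = 0.197).

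DNMT3B was split evenly, with 4 cell lines higher and 4 lower. In KASUMI-1 it rose from 24.79, 25.8 and 25.7 to 41.62, 41.88 and 43.48 CPM, with a log2 fold change of 0.73 (SE 0.08, edgeR, adjusted p = 4.54e-05). The change was of the same size in MONO-MAC-6 (0.73) and was 0.62 in MV-4-11 and 0.41 in HL-60. In F-36P it fell from 134.3, 115.2 and 118.1 to 64.63, 66.83 and 78.81 CPM, with a log2 fold change of -0.81 (SE 0.12, edgeR, adjusted p = 0.000306). MOLM-13 (-0.45), OCI-AML3 (-0.38) and NOMO-1 (-0.30) also fell. All 4 cell lines in which DNMT3B rose had basal levels of at most 25.48 CPM, and the 3 cell lines with the most DNMT3B changed by -0.81, -0.30 and, in NB-4, -0.19. MOLM-13 and OCI-AML3, which fell, had 29.47 and 31.69 CPM. The untreated libraries enter both the basal level and the change, here and wherever both are set side by side for another gene. A relation between them was not tested. THP-1, with the lowest basal level of 10.53 CPM, was at -0.01 (edgeR, adjusted p = 0.96). The value in NB-4 did not pass (edgeR, adjusted p = 0.0774) and passed with the replicate number as a block, where the 3 numbers pair the libraries (edgeR, adjusted p = 0.0185). It also passed without untreated replicate 2 (edgeR, adjusted p = 0.0314). Lost calls were those of HL-60 without untreated replicate 1 or 3, NOMO-1 without untreated or etoposide replicate 2, and OCI-AML3 without untreated replicate 2 or etoposide replicate 1 or 2, with adjusted p up to 0.0815, 0.0958 and 0.0596 (edgeR).

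The genes that maintain or read DNA methylation beside DNMT1 gave 21 comparisons higher and 45 lower of 120, over 12 of 13 listed genes that could be tested, which is 17.5% and 37.5% against 27.7% and 24.4% of all. The median log2 fold change was -0.11. USP7, a deubiquitinase that binds and stabilises DNMT1, fell in 9 cell lines, most in F-36P from 282 CPM ± 12.3 to 145 CPM ± 7.66 (SD, n = 3 each), and gave -0.17 in THP-1 (edgeR, adjusted p = 0.284). CDCA7, the partner of the remodeler HELLS, fell in 8, most in F-36P from 209 CPM ± 16 to 92.6 CPM ± 11.2 (SD, n = 3 each), and gave 0.03 in HL-60 and -0.02 in THP-1 (edgeR, adjusted p = 0.845 and 0.941). The mean log2 fold changes of USP7 and CDCA7 over 10 cell lines were -0.49 and -0.44 (limma, adjusted p = 0.00268 and 0.0201). HELLS itself rose in 6 cell lines and fell in 1, and its mean of 0.30 did not pass (limma, adjusted p = 0.273). It was named here after its values were seen.

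The etoposide changes of the TET genes differed. The 250 bases upstream of their RefSeq start sites (GRCh38.p14) are shown as a description, and their part in these changes was not tested. TET1 has 3 such windows and TET2 and TET3 have 2 each, and only the window at the start of the main transcript is described. The window of TET1 (chr10:68560087-68560336, plus strand) has 51.6% G or C and 9 CpG, that of TET2 (chr4:105146626-105146875, plus strand) 72.8% and 34, and that of TET3 (chr2:73984660-73984909, plus strand) 84.0% and 37. Over 27305 such windows the medians are 58.0% and 11. Capitals mark an E2F motif, here TTCCCGC on the minus strand of TET3. The motif was searched on both strands in this form, further as TTGGCGC, then as TTCGCGC and lastly as TTGCCGC, and 11% of all windows hold at least 1 of these forms. Neither TTTGAA (the CHR element, in 13.6% of windows) nor CCAAT (in 33%), each searched on both strands, is in any of the 3 windows, and the methylation of these bases was not measured.
TET1: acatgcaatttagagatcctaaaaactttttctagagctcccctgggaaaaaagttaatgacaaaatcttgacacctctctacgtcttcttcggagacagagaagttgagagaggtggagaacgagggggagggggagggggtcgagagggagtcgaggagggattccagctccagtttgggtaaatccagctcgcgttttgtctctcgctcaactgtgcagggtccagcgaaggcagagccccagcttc
TET2: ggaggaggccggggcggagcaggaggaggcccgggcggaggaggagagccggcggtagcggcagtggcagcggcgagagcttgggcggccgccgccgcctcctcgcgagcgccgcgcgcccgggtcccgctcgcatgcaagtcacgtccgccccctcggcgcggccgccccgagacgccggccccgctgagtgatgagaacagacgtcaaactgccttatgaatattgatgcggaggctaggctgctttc
TET3: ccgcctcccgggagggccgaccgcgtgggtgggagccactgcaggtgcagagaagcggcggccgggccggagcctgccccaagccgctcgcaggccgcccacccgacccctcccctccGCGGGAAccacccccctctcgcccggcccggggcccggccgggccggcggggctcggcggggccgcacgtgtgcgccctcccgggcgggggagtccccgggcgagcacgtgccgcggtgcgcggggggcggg

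TET1 (chr10:68560337-68694487) had the widest basal range of the 10 genes. KASUMI-1 held 87.67, 89.79 and 71.57 CPM and F-36P 25.13, 31.67 and 40.49 CPM, while MV-4-11 held 1.185, 1.645 and 1.461 CPM, from 24 to 31 reads per library. KASUMI-1 differed from F-36P by 2.56-fold (edgeR, adjusted p = 3.45e-12) and F-36P from NB-4 by 2.06-fold (edgeR, adjusted p = 5.74e-09). From NB-4 (15.73 CPM ± 1.68, SD, n = 3) down to NOMO-1 (10.19 CPM ± 0.653, SD, n = 3), neighbours did not differ past the threshold. TET2 (chr4:105145875-105279816) was highest in MONO-MAC-6 at 172.5, 161.5 and 164.6 CPM and lowest in NB-4 at 18.48, 14.33 and 17.64 CPM, a 9.89-fold range. TET3 (chr2:73984910-74108176) was the most even gene of the 10, from 92.25 CPM ± 5.63 in THP-1 to 170.2 CPM ± 7.71 in HL-60 (SD, n = 3 each), and 9 of its 10 neighbouring pairs did not differ. Per kilobase of the main transcript, TET3 held the largest share of the 3 genes in 9 cell lines and TET2 in MONO-MAC-6 (58.6%) and OCI-AML2 (50.1%). Measured over all exons instead, TET3 led in 10 cell lines. TET1 held between 1.15% (MV-4-11) and 33.2% (KASUMI-1) of the sum.

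After etoposide, TET1 fell in 9 of 10 cell lines, and each of these 9 calls was kept without every library in turn. The largest change was in NB-4, from 17.02, 14.52 and 18.1 to 5.791, 4.904 and 4.91 CPM, so that every treated library lay below every untreated one. The log2 fold change was -1.67 (SE 0.14, edgeR, adjusted p = 1.11e-07). In MONO-MAC-6, TET1 went from 13.83, 13.53 and 15.89 to 6.646, 5.299 and 5.724 CPM, a log2 fold change of -1.29 (SE 0.11, edgeR, adjusted p = 1.13e-06). In THP-1, where only 2 of the 10 genes changed, it went from 5.343, 6.131 and 6.904 to 3.157, 2.513 and 3.311 CPM (-1.03, SE 0.19, edgeR, adjusted p = 0.000539), and stayed past 2-fold in 3 of the 6 fits without 1 library. The groups did not overlap in any of the 9 cell lines. The remaining falls were between -0.90 in KASUMI-1 and -0.58 in NOMO-1. MV-4-11, with the least TET1, had 1.259, 1.767 and 1.564 CPM before and 2.646, 1.794 and 1.796 CPM after treatment. Its groups did not overlap either, with the etoposide libraries higher, but the log2 fold change of 0.45 (SE 0.23) did not pass (edgeR, adjusted p = 0.0993), and it passed with library size alone (edgeR, adjusted p = 0.0344).

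Among 10588 genes tested in all 10 cell lines, 4.32% were lower in at least 9, as TET1 was. The mean log2 fold change of TET1 over cell lines was -0.76 with an SD of 0.54 (limma, adjusted p = 0.00511, and p = 0.00391 by an exact two-sided sign-flip permutation over the 10 cell lines), where 12.7% of genes were lower by limma. The cell lines still differed (edgeR F test, adjusted p = 1.52e-06). MV-4-11 lay 1.39 above the mean of the other 9 cell lines on the log2 scale (edgeR, adjusted p = 3.18e-05, 13.2% of genes), NB-4 lay at -0.95 (edgeR, adjusted p = 2.73e-05, 19.5% of genes) and MONO-MAC-6 at -0.59 (edgeR, adjusted p = 0.0108, 15.9% of genes).

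**Figure D3:**
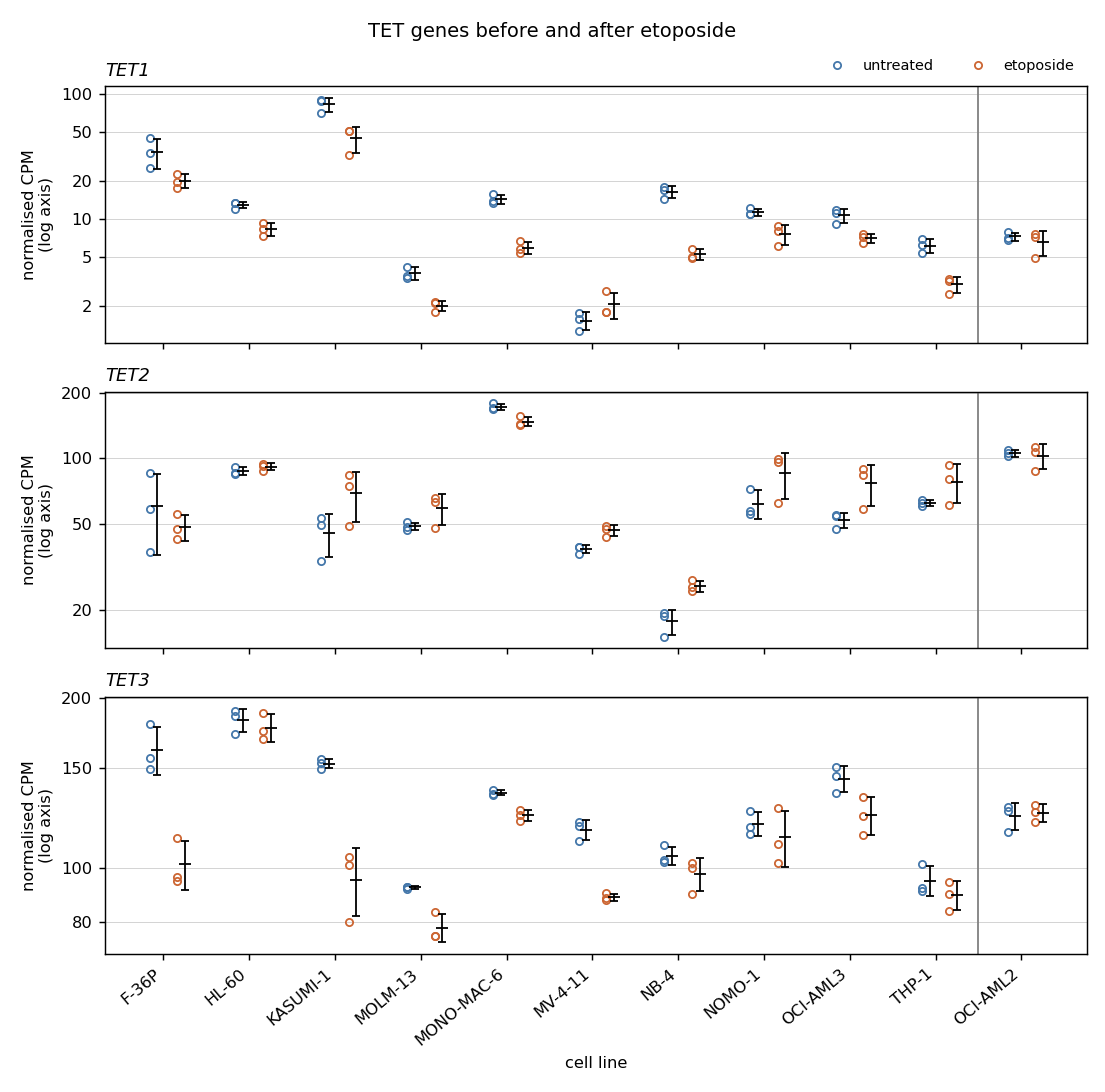
Normalised CPM (log axes that differ among the 3 panels) of TET1, TET2 and TET3 in untreated (blue) and etoposide-treated (orange) libraries of each cell line, with the mean and SD of the 3 libraries beside the circles; OCI-AML2 stands right of the line. The orange circles of TET1 lie below the blue ones in 9 of 10 cell lines, those of TET2 above them in 3, and the circles of F-36P, KASUMI-1 and NOMO-1 for TET2 are widely spread.

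TET2 rose in 5 cell lines and fell in 1. In NB-4, where its basal level was lowest, it rose from 19.36, 15.01 and 18.68 to 27.3, 24.43 and 25.38 CPM, with a log2 fold change of 0.54 (SE 0.12, edgeR, adjusted p = 0.00109). In the same cells TET1 fell 3.18-fold. In MONO-MAC-6, with the highest level, TET2 fell from 179.3, 168.2 and 171.2 to 156.3, 143.9 and 143.1 CPM, with a log2 fold change of -0.23 (SE 0.05, edgeR, adjusted p = 0.00205), which was lost with library size alone (edgeR, adjusted p = 0.0651). MV-4-11 rose by 0.29 on the log2 scale. These 3 calls were kept without each library in turn. In 1 fit of 60 libraries, those of MONO-MAC-6 and MV-4-11 were lost (edgeR, adjusted p = 0.32 and 0.141). The other calls rest on libraries with a wide spread. KASUMI-1 had 52.82, 49.34 and 33.54 CPM before and 83.37, 48.83 and 74.64 CPM after treatment, and NOMO-1 had 72.42, 57.39 and 55.2 and then 62.06, 99.42 and 95.87 CPM. Their groups overlapped, and the calls (0.61 and 0.48) were each lost without any of 4 libraries, namely untreated replicates 2 and 3 and etoposide replicate 3 in both, etoposide replicate 1 in KASUMI-1 and etoposide replicate 2 in NOMO-1 (edgeR, adjusted p up to 0.106 and 0.116). OCI-AML3 (0.57) was lost without untreated replicate 2 or etoposide replicate 1 (edgeR, adjusted p up to 0.058).

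In F-36P, the untreated libraries themselves differed for TET2, with 36.98, 58.28 and 85.94 CPM, beside 55.43, 47.06 and 42.25 CPM after treatment. The library lowest in TET2 was also lowest in TET1 and IDH1, and PTPRC spanned 202 to 583 CPM over the same 3 libraries. The part of this spread in the result was not tested. The log2 fold change of TET2 in F-36P was -0.32 (SE 0.26, edgeR, adjusted p = 0.299) and became -0.62 without untreated replicate 1 (edgeR, adjusted p = 0.00512). Single left-out libraries also brought TET2 past the threshold in MOLM-13 and in THP-1, in both without etoposide replicate 2 (edgeR, adjusted p = 0.00127 and 0.000207). The mean over 10 cell lines was 0.29 with an SD of 0.31 (limma, adjusted p = 0.0494, higher in 21.0% of genes), a value at the threshold that missed it without replicate 1 or 2 in every cell line (limma, adjusted p = 0.155 and 0.051).

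TET3 fell in 5 cell lines and rose in none of the 10. In KASUMI-1 it went from 153.5, 149.8 and 155.8 to 104.4, 80.18 and 101 CPM and in F-36P from 179.8, 149.3 and 156.3 to 96.34, 94.72 and 112.9 CPM. No library overlapped between the groups, and the log2 fold changes were -0.69 (SE 0.10, edgeR, adjusted p = 0.000328) and -0.68 (SE 0.12, edgeR, adjusted p = 0.000871). Relative to the mean of the other 9 cell lines, both lay at -0.44 on the log2 scale (edgeR, adjusted p = 0.000142 and 0.000129, tests passed by 30.0% and 33.5% of genes). MV-4-11 (-0.40), MOLM-13 (-0.24) and MONO-MAC-6 (-0.13) fell as well. MOLM-13 lost its call without etoposide replicate 3, MONO-MAC-6 without untreated replicate 2 or 3 or etoposide replicate 3 and with library size alone, with adjusted p up to 0.0877, 0.0993 and 0.765 (edgeR), and OCI-AML3 (-0.22, adjusted p = 0.0551) passed without etoposide replicate 3 (edgeR, adjusted p = 0.00945). NOMO-1 (-0.08) passed only without etoposide replicate 1 (edgeR, adjusted p = 0.0397). The mean over 10 cell lines was -0.24 with an SD of 0.23, and the sign was negative in all 10 (limma, adjusted p = 0.0489, and p = 0.00195 by the exact sign-flip permutation, the smallest it can give). The limma call was lost without any single replicate number (adjusted p between 0.0599 and 0.073) and without F-36P (adjusted p = 0.0875). An exon of TET3 overlaps an unnamed gene on the same strand, as an exon of DNMT1 overlaps S1PR2, and the level of such reads was not tested.

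The genes that clear oxidised methylcytosine by base excision repair or bind TET proteins gave 34 comparisons higher and 34 lower of 101, over 11 listed genes, or 33.7% each against 27.7% and 24.4% of all. LIG3, the ligase that seals the repaired strand, fell in all 10 cell lines, most in NB-4 from 104 CPM ± 4.13 to 48.4 CPM ± 3.27 (SD, n = 3 each). APEX1, the endonuclease that cuts at the base-free site, fell in 9 cell lines, in NB-4 from 523 CPM ± 10.3 to 235 CPM ± 8.29 (SD, n = 3 each), and gave -0.27 in THP-1 (edgeR, adjusted p = 0.0828). Other genes of the list rose, among them XRCC1, the scaffold that binds LIG3, in 7 cell lines and NEIL1, a DNA glycosylase, in 7 with a fall in THP-1, both named here after their values were seen. In NB-4 6 genes of the list rose and 3 fell. The mean log2 fold changes over 10 cell lines were -0.62 for LIG3 and -0.58 for APEX1 (limma, adjusted p = 0.000557 and 0.00202).

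IDH1 (chr2:208236229-208266074, minus strand) was highest in MONO-MAC-6 and OCI-AML3, at 277.4 CPM ± 10.8 and 251 CPM ± 33.9 (SD, n = 3 each), which overlapped. The lowest level was in KASUMI-1, at 41.93, 40.7 and 36.81 CPM. IDH2 (chr15:90083045-90102477, minus strand) was highest in KASUMI-1, where IDH1 was lowest (417.7, 438.5 and 503.6 CPM) and lowest in F-36P (83.46, 67.95 and 67.95 CPM) and OCI-AML3 (142.4 CPM ± 4.30, SD, n = 3). Per kilobase of the main transcript, IDH2 exceeded IDH1 in 7 of 11 cell lines, with 90.9% of their sum in KASUMI-1, and IDH1 exceeded IDH2 in OCI-AML3 (66.8%), MONO-MAC-6 (63.4%), F-36P (59.3%) and MOLM-13 (50.8%). Over all exons, IDH2 led in 10 cell lines.

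The response of IDH1 in F-36P stood apart. It rose from 77.85, 99.28 and 118.6 to 289.7, 258.7 and 243.9 CPM, so that the lowest treated library was above the highest untreated one, with a log2 fold change of 1.42 (SE 0.16, edgeR, adjusted p = 3.94e-05). It fell in 6 other cell lines. In MONO-MAC-6 the levels were 300.9, 279.4 and 285.7 CPM before and 162.8, 146.8 and 153.8 CPM after treatment (-0.90, SE 0.05, edgeR, adjusted p = 3.96e-08). In HL-60 they were 68.71, 64.17 and 73.15 and then 44.97, 43.57 and 28.43 CPM (-0.82, SE 0.15, edgeR, adjusted p = 0.000922). KASUMI-1 (-0.80), NB-4 (-0.65), MV-4-11 (-0.44) and NOMO-1 (-0.39) fell too, and all 7 calls were kept without each library in turn. OCI-AML3 (0.33) and THP-1 (0.22) did not pass with all libraries (edgeR, adjusted p = 0.0982 and 0.167). OCI-AML3 passed without untreated or etoposide replicate 3 and THP-1 without etoposide replicate 2 (edgeR, adjusted p down to 0.00432 and 0.00259). The change in F-36P was 1.85 above the mean of the other 9 cell lines on the log2 scale (edgeR, adjusted p = 5.71e-17, 33.5% of genes), and the mean over the 10 cell lines, -0.19 with an SD of 0.73, did not pass (limma, adjusted p = 0.497). The summed KLF1, GATA1 and EPOR level, given with DNMT1, was lower in all 3 treated than in all 3 untreated libraries of F-36P. 

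IDH2 rose in 7 cell lines and fell in none of the 10. F-36P again had the largest change, from 84.45, 72.66 and 74.53 to 163.9, 187.7 and 181.9 CPM, with no overlap and a log2 fold change of 1.20 (SE 0.12, edgeR, adjusted p = 1.77e-05). This was 0.94 above the mean of the other 9 cell lines (edgeR, adjusted p = 2.1e-11). In NB-4 IDH2 rose from 220.2, 242.2 and 248.8 to 330.3, 356.9 and 343.7 CPM (0.54, SE 0.08, edgeR, adjusted p = 4.95e-05), while IDH1 fell there. IDH2 likewise rose where IDH1 fell in MV-4-11 (0.49), MONO-MAC-6 (0.45), HL-60 (0.35) and NOMO-1 (0.22), and it rose in OCI-AML3 (0.26). HL-60 lost its call without untreated replicate 3 (edgeR, adjusted p = 0.054). OCI-AML3 lost it without any untreated library or etoposide replicate 2, and NOMO-1 without any of its 6 libraries (edgeR, adjusted p up to 0.0891 and 0.129). MOLM-13 had 203.5, 192.4 and 177.4 CPM before and 159.5, 192.2 and 176.6 CPM after treatment, the only negative value (-0.12, edgeR, adjusted p = 0.258). The mean over 10 cell lines was 0.40 with an SD of 0.35 (limma, adjusted p = 0.0204, and p = 0.00391 by the exact sign-flip permutation), and 0.30 without F-36P (limma, adjusted p = 0.0182).

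**Figure D4:**
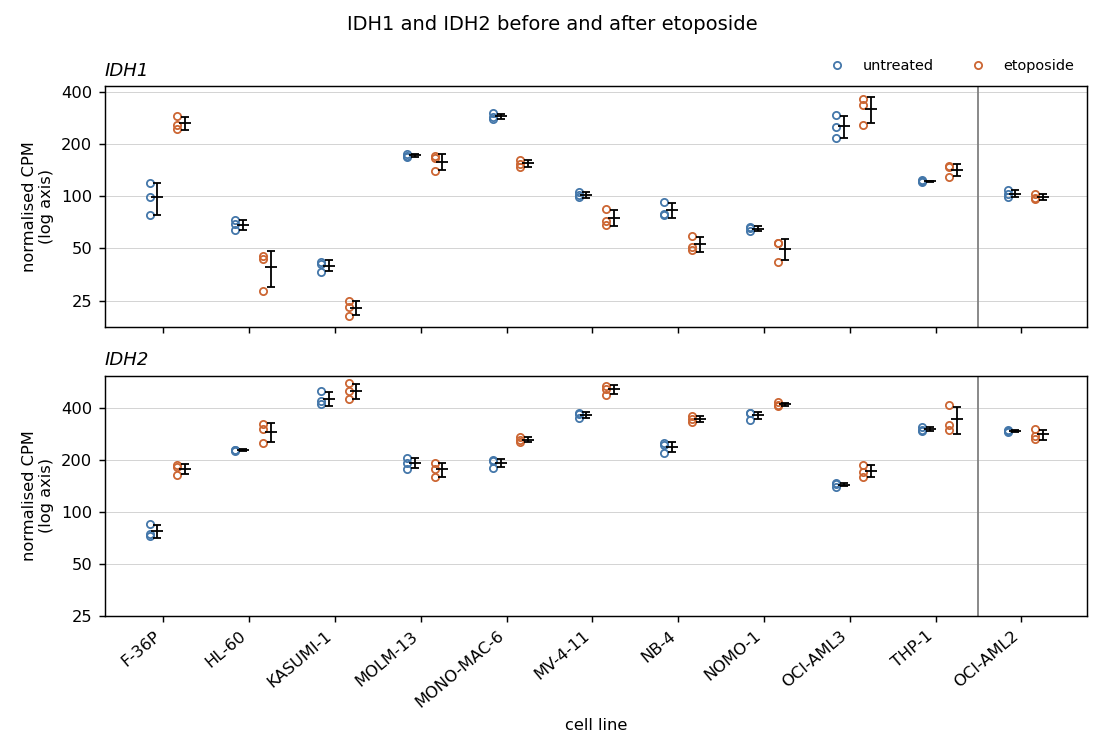
Normalised CPM (log axes) of IDH1 and IDH2 in untreated (blue) and etoposide-treated (orange) libraries of each cell line, with the mean and SD of the 3 libraries beside the circles; OCI-AML2 stands right of the line. In F-36P both genes lie higher after etoposide, whereas in NOMO-1, NB-4, MV-4-11, HL-60 and MONO-MAC-6 IDH1 is lower and IDH2 higher.

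The genes that supply 2-oxoglutarate or the methyl donor S-adenosylmethionine gave 19 comparisons higher and 72 lower of 150, over 15 listed genes, which is 12.7% and 48.0% against 27.7% and 24.4% of all. The median log2 fold change was -0.20. MAT2A, which makes S-adenosylmethionine, fell in all 10 cell lines, most in F-36P from 695 CPM ± 23.9 to 309 CPM ± 23.3 (SD, n = 3 each, -1.17). MTR, which regenerates methionine, fell in 8 cell lines and gave -0.22 in HL-60 and -0.33 in THP-1 (edgeR, adjusted p = 0.0657 and 0.0604). Their mean log2 fold changes over 10 cell lines were -0.73 and -0.52 (limma, adjusted p = 0.00045 and 0.000988).

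EZH2 (chr7:148807257-148884321, minus strand) had its highest basal level in MV-4-11, at 186.4, 185.8 and 182.2 CPM, and its lowest in NOMO-1, at 51.86, 50.26 and 47.39 CPM, a 3.71-fold range. MV-4-11, KASUMI-1, HL-60 and THP-1 formed a run in which no neighbours differed, and NOMO-1 was 1.75-fold below the next cell line, MONO-MAC-6 (edgeR, adjusted p = 2.83e-13). The 250 bases upstream of its RefSeq start (chr7:148884292-148884541, minus strand, GRCh38.p14) are shown as a description, and their part in its etoposide changes was not tested. EZH2 has 2 such windows, of which that at the start of the main transcript was taken. Its bases hold 4 matches to CCAAT on either strand, in capitals, a number that 0.93% of all windows reach, and neither the E2F motif nor the CHR element. The window of DNMT1 holds none of these motifs, and that of IDH1 holds 2 matches to CCAAT and 1 E2F motif.
EZH2: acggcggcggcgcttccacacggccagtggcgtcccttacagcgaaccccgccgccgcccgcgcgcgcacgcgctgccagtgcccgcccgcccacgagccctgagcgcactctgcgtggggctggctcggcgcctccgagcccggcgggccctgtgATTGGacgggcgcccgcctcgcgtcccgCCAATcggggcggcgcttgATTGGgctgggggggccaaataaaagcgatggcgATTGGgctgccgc

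After etoposide, EZH2 fell in 3 cell lines and rose in 3. In MOLM-13 the levels were 122.2, 112.3 and 113.8 CPM before and 68.03, 65.04 and 63.63 CPM after treatment, with no overlap and a log2 fold change of -0.82 (SE 0.07, edgeR, adjusted p = 7.74e-06). In OCI-AML3 they were 122.6, 114.8 and 116.1 and then 83.67, 82.94 and 72.61 CPM (-0.56, SE 0.08, edgeR, adjusted p = 0.000671). MV-4-11 fell by 0.24 on the log2 scale, a call lost with library size alone (edgeR, adjusted p = 0.0766). NOMO-1 rose from 57.98, 55.95 and 53.15 to 65.49, 84.92 and 72.17 CPM (0.41, SE 0.10, edgeR, adjusted p = 0.00475) and MONO-MAC-6 from 89.15, 89.78 and 93.74 to 119, 118.9 and 117.1 CPM (0.38, SE 0.05, edgeR, adjusted p = 2.19e-05). The rise in KASUMI-1 (0.20) was lost without any library but etoposide replicate 2 (edgeR, adjusted p up to 0.136). NB-4 (0.17) did not pass (edgeR, adjusted p = 0.0747) and passed with the replicate number as a block (edgeR, adjusted p = 0.017). HL-60 (0.21) and THP-1 (-0.27) did not pass (edgeR, adjusted p = 0.13 and 0.139). HL-60 passed without etoposide replicate 2 (edgeR, adjusted p = 0.0168) and with library size alone (0.0308), and THP-1 passed without etoposide replicate 1 (0.0398). Both passed in 1 fit of 60 libraries (0.0309 and 0.0371), as did NB-4 (0.0346), while the fall in MV-4-11 was lost there (0.0685). Relative to the mean of the other 9 cell lines, MOLM-13 and OCI-AML3 lay at -0.81 and -0.60 on the log2 scale (edgeR, adjusted p = 4.95e-10 and 1.16e-06, 25% and 16.5% of genes). NOMO-1 lay at 0.47 (edgeR, adjusted p = 8.66e-05, 23.8% of genes).

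The change of EZH2 ran beside that of 14 S phase genes, among them the MCM helicase subunits, PCNA and the cyclins E. In MOLM-13 all 14 fell (28.1% of all genes did), with a median log2 fold change of -1.02, and in OCI-AML3 11 of 14 fell (17.7% of all), with a median of -0.44. The medians were 0.50 in HL-60, 0.41 in NOMO-1, 0.39 in KASUMI-1 and 0.27 in MONO-MAC-6, where 10, 11, 8 and 10 of the 14 rose, beside 17.5%, 28.8%, 31.5% and 31.8% of all genes. The signs were opposite in NB-4 (median -0.11, EZH2 0.17) and THP-1 (median 0.16, EZH2 -0.27). Over the 10 cell lines, Pearson's r between the log2 fold change of a gene and the S phase median was 0.88 for EZH2 (Spearman's rho 0.86), 0.73 for DNMT1 (0.69) and -0.06 for DNMT3A (0.10). Without MOLM-13 and HL-60, the cell lines farthest from the median, r was 0.80, 0.61 and -0.13 over 8 cell lines. These are descriptions with no test, both measures come from the same libraries, and the part of the S phase genes in the result was not tested. The genes CDC6, a loader of the MCM complex, and CCNE2, a cyclin of the G1/S transition, rose in 8 and 7 cell lines and fell in 2 each.

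**Figure D5:**
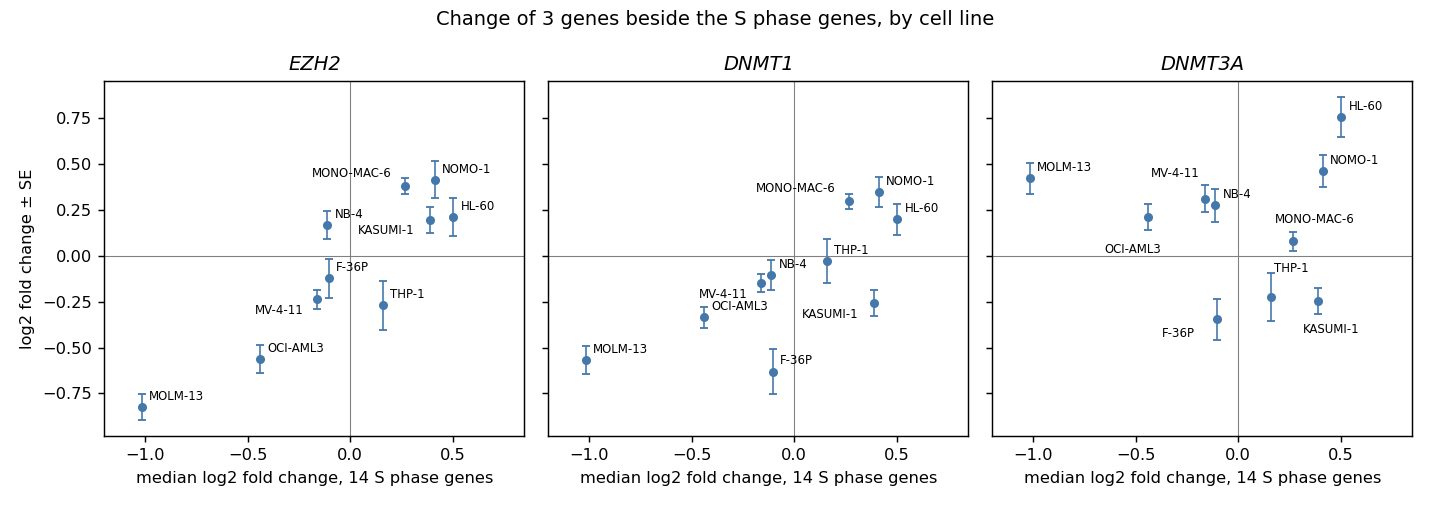
Log2 fold change of EZH2, DNMT1 and DNMT3A after etoposide (vertical axis, bars are ± SE of edgeR's estimate) against the median log2 fold change of 14 S phase genes (horizontal axis), with 1 point for each of 10 cell lines. MOLM-13 and OCI-AML3 lie lowest on both axes for EZH2, and for DNMT3A MOLM-13 lies high at 0.42.

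The other subunits of PRC2 and the demethylases that oppose it gave 25 comparisons higher and 37 lower of 119, over 12 of 13 listed genes, or 21.0% and 31.1% against 27.7% and 24.4% of all. AEBP2, an accessory subunit, fell in 8 cell lines, in F-36P from 56.5 CPM ± 8.92 to 29.8 CPM ± 3.23 (SD, n = 3 each), and gave 0.01 in MOLM-13, where EZH2 fell (edgeR, adjusted p = 0.912). In NOMO-1, where EZH2 rose, it gave -0.27 (edgeR, adjusted p = 0.0513). KDM6B, a demethylase of lysine 27, rose in 6 cell lines, most in THP-1 from 5.11 CPM ± 0.413 to 21.5 CPM ± 6.97 (SD, n = 3 each), and fell in MV-4-11 (-0.22, edgeR, adjusted p = 0.0456). Their mean log2 fold changes were -0.44 and 0.55 (limma, adjusted p = 0.0043 and 0.0402).

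ASXL1 (chr20:32358330-32439319, plus strand) had a narrow basal range, from 115.7, 101.9 and 107.7 CPM in THP-1 to 214.9, 203.6 and 209.7 CPM in HL-60. After etoposide it fell in 7 cell lines and rose in 1. The largest fall was in F-36P, from 183, 166.7 and 170 to 101.9, 105.4 and 120.6 CPM, with no overlap and a log2 fold change of -0.66 (SE 0.11, edgeR, adjusted p = 0.000538). The falls in MOLM-13 (-0.37), OCI-AML3 (-0.35) and MV-4-11 (-0.32) were also kept without each library in turn. Those in THP-1 (-0.38), KASUMI-1 (-0.27) and NB-4 (-0.22) were not, since THP-1 lost its call without any untreated library or etoposide replicate 3, KASUMI-1 without etoposide replicate 3, and NB-4 without untreated replicate 3 or any etoposide library (edgeR, adjusted p up to 0.161, 0.0516 and 0.0901). All 3 were lost with library size alone (edgeR, adjusted p = 0.0561, 0.298 and 0.886). MONO-MAC-6 rose by 0.11 on the log2 scale, from 141.3, 139.2 and 134.5 to 150.4, 147.7 and 149.9 CPM, and lost its call without any library but untreated replicate 1 (edgeR, adjusted p up to 0.237). NOMO-1 (-0.10) passed only without etoposide replicate 1 (edgeR, adjusted p = 0.0469). HL-60 (-0.215) did not pass (edgeR, adjusted p = 0.0538), though its groups did not overlap. It passed with the DESeq2 Wald test (adjusted p = 0.0496) and in 1 fit of 60 libraries (edgeR, adjusted p = 0.0466). Relative to the mean of the other 9 cell lines, the change lay at 0.40 in MONO-MAC-6 and at -0.41 in F-36P on the log2 scale (edgeR, adjusted p = 5.34e-05 and 9.99e-06). Over the 10 cell lines the mean was -0.25 with an SD of 0.19 (limma, adjusted p = 0.0265, and p = 0.00391 by the exact sign-flip permutation), and it was lost with library size alone (-0.17, limma, adjusted p = 0.115).

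The other genes of PR-DUB fell more often than they rose, in 39 against 3 of 81 comparisons over 9 listed genes (48.1% and 3.70%, beside 24.4% and 27.7% of all). HCFC1, a scaffold bound by BAP1, fell in 9 cell lines and gave -0.09 in MONO-MAC-6 (edgeR, adjusted p = 0.30), the cell line in which ASXL1 was higher. FOXK2, the factor that brings BAP1 to DNA, fell in 7, most in KASUMI-1 from 209 CPM ± 12 to 130 CPM ± 4.75 (SD, n = 3 each). Their mean log2 fold changes were -0.47 and -0.26 (limma, adjusted p = 0.0027 and 0.04).

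Cell lines differed in how many of the 10 genes changed, here read against the shares of all genes tested in that line that were higher and lower. F-36P had 2 higher and 6 lower (35.0% and 25% of all genes), and KASUMI-1 had 3 and 6 (31.5% and 28.6%). MOLM-13 had 1 higher and 6 lower (28.1% each), OCI-AML3 3 and 5 (22.4% and 17.7%), and MV-4-11 4 and 5 (33.5% and 30.4%). MONO-MAC-6 had 5 higher and 4 lower (31.8% and 30.5%). NOMO-1 had 5 higher and 3 lower (28.8% and 23.9%). It was opposite to MOLM-13 in DNMT1 and EZH2, while in both lines DNMT3A rose and DNMT3B and TET1 fell. NB-4 had 3 and 3 (31.0% and 28.7%) and HL-60 3 and 2 (17.5% and 15%). THP-1 had 0 higher and 2 lower, TET1 and ASXL1 (16.1% and 16%). The sum of PTPRC, SPI1, CD33 and MPO fell in HL-60 (7750 to 8080 CPM before and 2930 to 4560 CPM after) and KASUMI-1 (25600 to 29000 and 12800 to 14400). It also fell in NB-4 (15500 to 18200 and 4480 to 5040) and NOMO-1 (2460 to 2750 and 1060 to 1320). In these cell lines it was mostly MPO before treatment, at 7400 to 7750 CPM in HL-60 and 1880 to 2170 CPM in NOMO-1. The sum rose without overlap in MOLM-13 (505 to 523 and 590 to 657 CPM) and MONO-MAC-6 (593 to 598 and 618 to 637). It rose likewise in MV-4-11 (377 to 384 and 467 to 479), OCI-AML3 (600 to 715 and 764 to 898) and THP-1 (402 to 408 and 509 to 543). In F-36P the groups overlapped. The part of this sum in the results of these cell lines was not tested. The sum of KLF1, GATA1 and EPOR was between 13.0 and 16.3 CPM in untreated and between 24.6 and 34.3 CPM in treated KASUMI-1. It was mostly EPOR there, at 11.3 to 13.6 CPM before and 23.4 to 32.2 CPM after. KLF1 went the other way in KASUMI-1 (1.63 to 2.69 and 0.831 to 1.62 CPM), and GATA1 was at most 0.552 CPM. This sum also rose without overlap in NOMO-1, NB-4, MV-4-11 and OCI-AML3. It fell without overlap in F-36P and MOLM-13, and the groups overlapped in HL-60, MONO-MAC-6 and THP-1. T cell, B cell, epithelial and fibroblast markers were also summed. The 3 T cell markers reached 164 to 195 CPM in untreated NOMO-1, mostly CD3D (160 to 190 CPM), with CD3E at most 4.32 CPM and CD2 at most 0.36 CPM. The 2 epithelial markers reached 67.5 to 89.5 CPM in untreated KASUMI-1, all of it EPCAM, with KRT19 at 0 CPM.

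As a description over cell lines, the gene most like each member was sought by Pearson's r. Among 13669 genes, the basal log2 level of TET1 over 11 cell lines was most like that of PLCG1 (r = 0.97) and, among the 10 genes, of DNMT3A (0.80). That of DNMT1 was most like ELAVL1 (0.97), that of ASXL1 most like KMT2A (0.94), and ASXL1 and TET3 were each other's nearest among the 10 (0.71). Among 10588 genes, the log2 fold change of DNMT1 over 10 cell lines was most like that of TOE1 (0.99) and, among the 10 genes, of ASXL1 (0.83). EZH2 was most like CDCA4 (0.98), TET3 most like MARK3 (0.97) and IDH2 most like SCAPER (0.96). IDH1 moved against ASXL1 (-0.83) and DNMT3B (-0.78). Each of these values is the best of many, the points share libraries, and none was tested.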

How the data were processed

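RNA of 66 libraries was sequenced (TruSeq stranded mRNA, Illumina HiSeq). The authors deposited raw counts of reads per gene, made with STAR 2.5.3a on GRCh38.p7 with gencode 25 annotation, after FastQC 0.11.5, per the labels and the study's methods. Each file holds 1 count per gene, and which of STAR's strand columns it came from is not given in the sources used here. Of 707 genes that lie within a single exon of a gene on the other strand, 463 had at least 1 read over the 66 libraries. Counting without strand would leave out such reads as ambiguous. These exons are of gencode 44, not of the gencode 25 used for counting, so this check cannot settle the strand column. Reads of TET2 and IDH1 may still include some of TET2-AS1 and IDH1-AS1. The 45 pseudoautosomal Y copies were left out, and symbols came from gencode 44. Depth limits precision most for TET1, with 24 reads in 1 library.

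Counts were filtered with filterByExpr (minimum count 10, total 15), scaled by TMM and tested with edgeR 4.0.16 (R 4.3.3, quasi-likelihood, Benjamini-Hochberg over all genes) within each cell line. Means over 10 cell lines were tested with limma 3.58.1 on 1 log2 fold change per line, and by exact sign flips (1024). Differences among lines and basal levels were tested with edgeR F tests. DESeq2 1.42.0, other scalings, filters, a replicate block and left-out libraries were alternatives. Code was tested on simulated data. The authors used edgeR 3.20.1 for comparisons of their own, not used here.

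All 10 genes were named in each comparison; per list, the 2 genes past the test in the most cell lines in 1 direction, ties going to the larger mean log2 fold change in size; for likeness, the gene with the highest r. The members and lists were chosen with earlier results of these data known. Replicate numbers were checked for pairing by the correlation of same-numbered deviations, and only NB-4 had all 3 above 0.1 (0.265, 0.22 and 0.152). Replicates of a line are cultures of 1 line, so p-values measure the spread between these libraries. The summed erythroid list is given for 3 of its 4 genes, a sum chosen after the data were seen.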

Additional observations from a re-analysis of the deposited data

Results flagged for a closer look

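In 3 genes, 1 cell line stood far from the other 9 in the difference of mean log2 CPM between etoposide and untreated libraries, by Dixon's criterion for 10 values, which chance meets in about 1 of 20 groups. TET1 in MV-4-11 was at 0.45, the only positive value. IDH1 in F-36P was at 1.48 and IDH2 in F-36P at 1.25.

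The etoposide change differed among the 10 cell lines for each of the 10 genes by edgeR's F test, as it did for 74.5% of all genes. The adjusted p was 6.95e-17 for IDH1, 1.52e-15 for DNMT3B, 2.04e-13 for EZH2, 5.21e-13 for DNMT3A, 1.63e-11 for DNMT1 and 2.04e-10 for IDH2 (edgeR). It was 1.52e-06 for TET1, 3.67e-06 for ASXL1, 5.89e-06 for TET3 and 0.00429 for TET2 (edgeR).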

How the results depend on the processing

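Over 1397 recomputed values of a gene in a cell line, 1245 kept their side of the threshold, 112 no longer passed and 40 newly passed. Direction was compared only where the main or the recomputed value passed, and 0 of those reversed. Where neither passed, the sign could change, as for DNMT3B in THP-1 (log2 fold change between -0.12 and 0.13 with 1 library left out). Calls higher ranged from 21 to 36 and lower from 32 to 43. The number of genes whose mean over cell lines passed was 5 and became 3 with library size alone and 3 over 11 cell lines with OCI-AML2, and between 3 and 4 without 1 replicate number. TET1 and IDH2 passed in every alternative. TET3 missed with RLE scaling (limma, adjusted p = 0.0666), library size alone (0.146) and 11 cell lines (0.0567), and TET2 with 11 cell lines (0.0617) and sign flips (0.0677). The F test among cell lines passed for 10 genes and for 9 without replicate 3 (TET2, edgeR, adjusted p = 0.0903). Basal differences passed for 10 genes throughout. With the replicate number as a block, 26 were higher and 41 lower, with 3 calls gained and 7 lost, and outside NB-4 the numbers were not shown to pair the libraries. The lengths over all exons were chosen after seeing the data. The causes were not tested.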
